A study of Arabidopsis halleri with 12 samples.

Results

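The chloroplast-encoded genes were read in root RNA of Arabidopsis halleri, a zinc-hyperaccumulating relative of Arabidopsis thaliana. They were taken as the probe sets assigned to 1 gene whose symbol is a lower-case plastid name (psa, psb, pet, ndh, atp and a capital letter, rpo, rps or rpl and a digit, rbcL, ycf, ccsA, cemA, accD, clpP or matK). This gave 69 probe sets for 69 genes, 1 probe set a gene, of 13350 genes named by a single-gene probe set. Their Entrez numbers all lay between 844704 and 844806. A further 8 probe sets that list the same plastid symbol for a pair of gene copies were assigned to several genes and were not counted.

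The study asked what suppression of AhNAS2, which encodes an enzyme making the metal chelator nicotianamine, does in roots. The 12 arrays fell into 4 groups of 3. The groups were an RNA interference line, AhNAS2-RNAi-1-2, with zinc added to 10 µM (RNAi zinc) and the same line in control Hoagland medium (RNAi control), and the Langelsheim wild-type with the same added zinc (WT zinc) and in control medium (WT control). All plants were clones grown in hydroponics and were 5 weeks old, each array pooled the roots of 3 plants, and 3 independent experiments were done. Only 1 RNAi line was profiled, so the suppression and other differences of that line from WT cannot be told apart. The promoter of the RNAi construct was not stated in the labels, and the suppression itself was not checked here.

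Plastids keep a small genome of cyanobacterial origin. It encodes core subunits of both photosystems, the cytochrome b6f complex, the ATP synthase and the NAD(P)H dehydrogenase-like (NDH) complex, the large subunit of Rubisco, and part of the plastid's own ribosomes and RNA polymerase. Root plastids are mostly colourless and do not photosynthesise, but they make fatty acids and amino acids and still need plastid genes such as accD and clpP. Plastid genes are transcribed by a bacterial-type polymerase, whose core is encoded by the rpo genes, and by phage-type polymerases encoded in the nucleus. Most of them lie in clusters that are read as long shared transcripts and then cut. In whole roots, fewer plastids or cells and less RNA per cell cannot be told apart.

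Signals are RMA summaries on the log2 scale, so a difference of 1 is a doubling. The median of all 22746 tested probe sets was 5.36 and the lower and upper quartiles were 3.98 and 7.06. The probes were designed for A. thaliana and bind with unequal strength, and plastid transcripts largely lack the long poly(A) tails that many labelling primers use (the labels name no primer). The order of signals below therefore describes probe sets and is not an order of RNA levels, and no detection calls were used here.

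The plastid genes spread over nearly the whole signal range. Their mean signals over the 12 arrays ran from 2.85 for atpI to 11.50 for atpE, with 34 of the 69 genes above the median of all probe sets and 35 below it. Above the upper quartile of all probe sets lay 15 of the 69 (21.7%), and below the lower quartile 19 (27.5%). Some classes lay mostly on one side of the median. Above it were 10 of 15 ribosomal genes and 5 of 6 single genes (accD, ccsA, cemA, clpP, matK and rbcL), against 1 of 10 NDH genes. The other classes were divided, with 6 of 15 photosystem II and 4 of 7 photosystem I and assembly genes above it. So were 3 of 6 cytochrome b6f, 3 of 6 ATP synthase and 2 of 4 RNA polymerase genes.

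**Figure D1:**
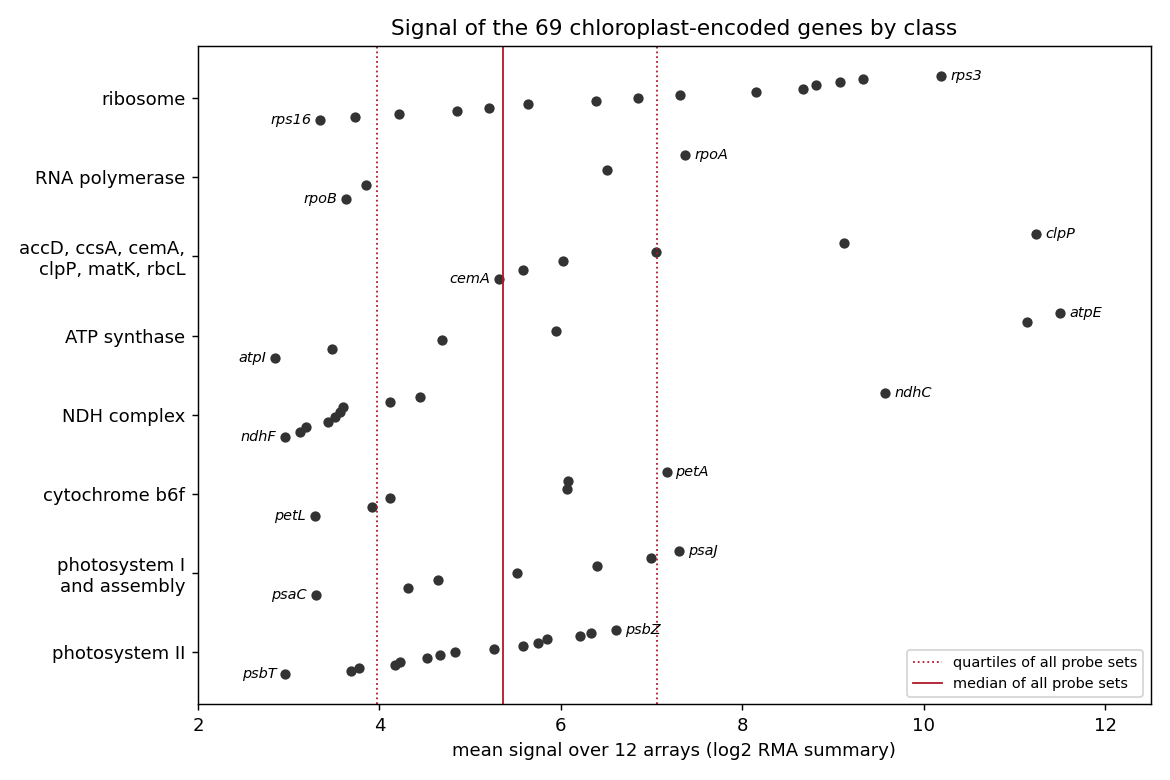
Mean signal over the 12 arrays (log2, horizontal axis) of each of the 69 plastid genes, 1 point a gene, by complex. The red line marks the median of all tested probe sets (5.36) and the dotted lines their quartiles (3.98 and 7.06); most NDH genes sit left of the lower quartile.

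The brightest plastid genes came from the ATP synthase, protein turnover and translation. AtpE, the epsilon subunit of the ATP synthase, read 11.47, 11.62 and 11.50 in RNAi zinc, 11.69, 11.50 and 11.48 in RNAi control, 11.18, 11.63 and 11.34 in WT zinc, and 11.77, 11.39 and 11.45 in WT control. ClpP, the proteolytic subunit of the plastid Clp protease, read 11.16, 11.29 and 11.27 in RNAi zinc, 11.29, 11.25 and 11.28 in RNAi control, 10.97, 11.44 and 11.24 in WT zinc, and 11.43, 10.94 and 11.30 in WT control. Both overlapped among all 4 groups. AtpB, the beta subunit and the neighbour of atpE, read 11.24, 11.18 and 11.12 in RNAi zinc, 11.30, 11.21 and 11.13 in RNAi control, 11.06, 11.26 and 11.03 in WT zinc, and 11.25, 11.00 and 10.91 in WT control. Rps3, a protein of the small ribosomal subunit with a mean of 10.19, read 9.91, 10.25 and 10.39 in RNAi zinc, 10.38, 10.22 and 10.39 in RNAi control, 9.81, 10.37 and 10.07 in WT zinc, and 10.50, 10.04 and 9.99 in WT control. The values of atpB and rps3 overlapped among the groups as well. NdhC, an NDH subunit with a mean of 9.57, read 9.56, 9.68 and 9.54 in RNAi zinc, 9.67, 9.67 and 9.63 in RNAi control, 9.40, 10.07 and 9.12 in WT zinc, and 9.75, 9.51 and 9.27 in WT control. NdhC was alone in its complex: the other 9 NDH genes lay below the median of all probe sets, and 7 of the 10 lay below the lower quartile.

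The ATP synthase genes were split. AtpE and atpB were above the upper quartile and atpH at 5.95, above the median, while atpA (4.69), atpF (3.48) and atpI (2.85) were below it. AtpI, a membrane subunit, was the dimmest of the 69, at 2.94, 2.86 and 2.84 in RNAi zinc, 2.98, 2.86 and 2.69 in RNAi control, 2.86, 2.91 and 2.81 in WT zinc, and 2.78, 2.81 and 2.84 in WT control. The other 2 of the dimmest 3 were ndhF, an NDH subunit, and psbT, a small photosystem II subunit, both with a mean of 2.96. NdhF read 3.12, 2.78 and 2.89 in RNAi zinc, 2.93, 2.99 and 2.93 in RNAi control, 2.97, 2.91 and 2.83 in WT zinc, and 3.12, 3.07 and 2.99 in WT control. The highest WT zinc value lay just under the lowest WT control value, and the other groups overlapped.

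The translation genes were the brightest large class. The 15 ribosomal genes had a median signal of 6.86, from 3.35 for rps16 to 10.19 for rps3, with 7 above the upper quartile. Among them rpl14, rpl33, rpl22, rpl16 and rps19 had mean signals of 7.32 (rps19) or more, while rps14 (4.21), rpl20 (3.73) and rps16 were below the median. The 4 genes of the bacterial-type RNA polymerase were 7.37 for rpoA, which is transcribed with ribosomal genes, against 3.63 for rpoB.

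The photosynthesis genes mostly gave middling or low signals. The 15 photosystem II genes had a median of 4.83, from 2.96 (psbT) to 6.61 (psbZ), with none above the upper quartile. PsbA, whose product is the fast-turning core protein of the photosystem II reaction centre and whose transcript is among the most abundant in leaves, read 4.66, 4.78 and 4.80 in RNAi zinc, 4.96, 4.80 and 5.12 in RNAi control, 4.78, 5.14 and 4.71 in WT zinc, and 4.67, 4.76 and 4.79 in WT control. Every one of these 12 values was below the median of all probe sets. RbcL, the large subunit of Rubisco, read 5.84, 5.98 and 5.72 in RNAi zinc, 6.09, 5.77 and 5.97 in RNAi control, 5.90, 6.66 and 5.90 in WT zinc, and 6.30, 6.15 and 6.08 in WT control, above the median on every array. The 7 genes of photosystem I and its assembly ran from 3.30 (psaC, an iron-sulfur subunit) to 7.30 (psaJ) and the 6 cytochrome b6f genes from 3.29 (petL) to 7.17 (petA, cytochrome f).

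The remaining single genes serve functions outside the photosynthetic complexes. AccD, the plastid-encoded subunit of the acetyl-CoA carboxylase of fatty acid synthesis, read 5.49, 5.44 and 4.72 in RNAi zinc, 6.42, 5.24 and 5.23 in RNAi control, 5.20, 6.42 and 4.97 in WT zinc, and 6.11, 5.39 and 6.37 in WT control. MatK, an intron maturase, was above the upper quartile. CcsA, which acts in heme attachment to cytochromes of the c type, had group means of 6.76 ± 0.41 in RNAi zinc, 6.94 ± 0.32 in RNAi control, 6.97 ± 0.21 in WT zinc and 7.52 ± 0.26 in WT control (SD, n = 3). CemA, an envelope membrane protein, was the dimmest of these 6 at 5.32.

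Tissue markers were thin on this annotation. Of 18 root genes looked for, 2 had a named single-gene probe set, the root hair expansins EXPA7 (8.03) and EXPA18 (6.99), both above the median of all probe sets. Of 59 nuclear genes of photosynthesis, the markers of green tissue, 9 had one, with mean signals of 4.55 to 5.49, and 1 of the 9 was above the median. Summed on the linear scale these 9 gave 263 to 343 over the 12 arrays.

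Within groups, the plastid genes varied more than probe sets as a whole and moved together on single arrays. The median within-group SD was 0.23 for the 69 genes against 0.14 for all probe sets. The spread was larger in the bright members: 0.30 for plastid genes above the median signal, against 0.16 for all probe sets above it, and 0.15 for plastid genes below it against 0.12. The most variable was psaI, a small photosystem I subunit, at 5.64, 5.76 and 5.22 in RNAi zinc, 6.35, 5.31 and 5.17 in RNAi control, 4.87, 6.79 and 4.31 in WT zinc, and 5.82, 4.99 and 5.98 in WT control. Its SD within groups was 0.79, and it spanned 2.47 log2 units over the 12 arrays. AccD and ycf3 (a photosystem I assembly factor) followed with 0.62 each, then petG (a small cytochrome b6f subunit) with 0.57 and psbJ (a small photosystem II subunit) with 0.53.

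RNAi control replicate 1 and WT zinc replicate 2 stood apart from the other arrays of their groups in the plastid genes. RNAi control replicate 1 gave the highest value of its group in 48 of 69 plastid genes (69.6%, against 34.1% of all probe sets), and WT zinc replicate 2 in 49 of 69 (71.0%, against 31.1%). The median plastid gene lay 0.15 above its group mean on the RNAi control array and 0.23 above it on the WT zinc array. WT control replicate 1 was highest of its group in 36 of 69 (52.2%, against 26.0%). Over all 12 arrays it was the highest in 17 of 69 (24.6%, against 4.70% of all probe sets). WT zinc replicate 2 was highest of the 12 in 21 (30.4%, against 5.99%) and RNAi control replicate 1 in 11 (15.9%, against 7.35%). RNAi zinc replicate 3 was highest of its group in 10 (14.5%, against 28.9%) and lowest in 42. Of the 69 genes, 39 were highest of their group on both RNAi control replicate 1 and WT zinc replicate 2. For the 42 and the 39 the share over all probe sets was not counted.

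The median of this array-to-array shift was larger in the brighter genes. Among the 34 plastid genes above the median signal, 28 were highest on RNAi control replicate 1 and 31 on WT zinc replicate 2, with median deviations of 0.32 and 0.33. Among the 35 below it, the counts were 20 and 18 and the median deviations 0.08 and 0.05. On WT control replicate 1 the counts were 24 of 34 and 12 of 35, with median deviations of 0.20 and -0.01. By complex, 13 of 15 ribosomal genes were highest on each of RNAi control replicate 1 and WT zinc replicate 2, and 11 on WT control replicate 1. Of the 10 NDH genes only 4, 2 and 3 were highest on these arrays in turn. The largest deviations on WT zinc replicate 2 were psaI at 1.46, ycf3 at 1.11, accD at 0.89, psbI at 0.86 and psbM at 0.84. On RNAi control replicate 1 they were petG at 1.13, ycf3 at 0.81, rps4 at 0.80, accD at 0.79 and psaI at 0.74. Of these genes petG, rps4 and psbI were below the median signal.

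**Figure D2:**
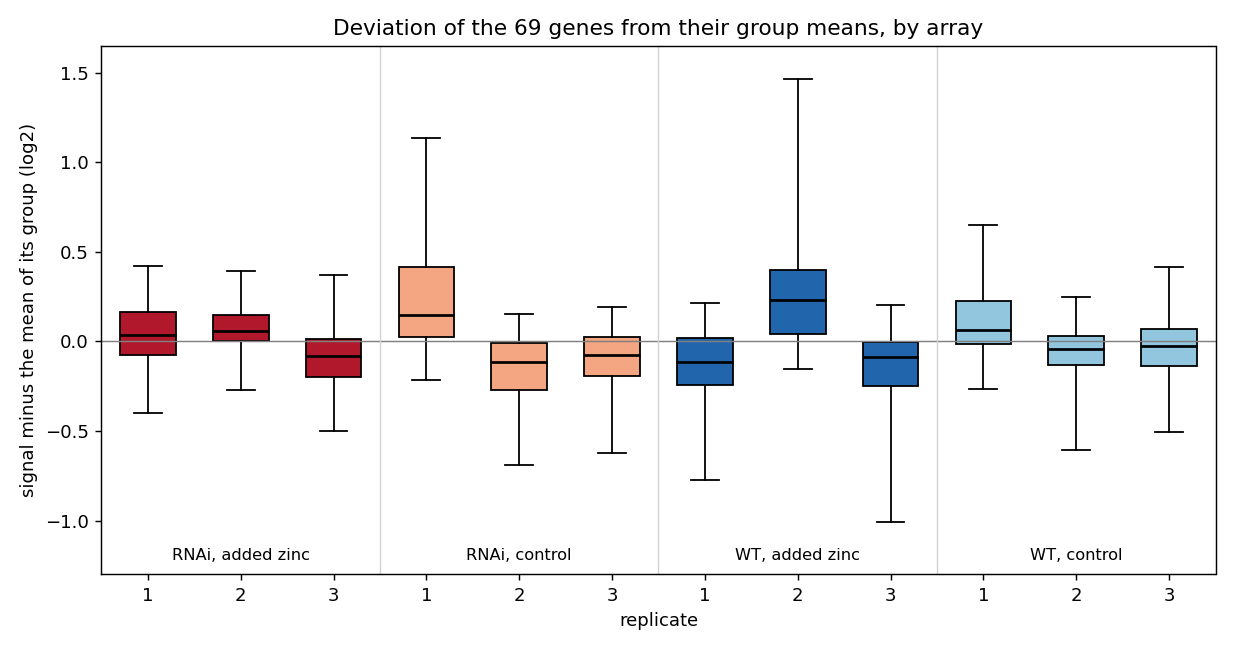
Deviation of each of the 69 plastid genes from its group mean (log2, vertical axis) on each of the 12 arrays, as boxes with whiskers to the lowest and highest gene. The boxes of RNAi control replicate 1 (median 0.15) and WT zinc replicate 2 (median 0.23) sit highest within their groups.

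Some technical measures moved with RNAi control replicate 1 and WT zinc replicate 2. The mean of the 18 hybridization spike-in probe sets was 10.45 on RNAi control replicate 1, the highest of the 12 arrays, and 10.08 on WT zinc replicate 2, the highest of the 6 zinc arrays. Spike-in means were 9.83 to 9.95 in RNAi zinc, 10.14 to 10.45 in RNAi control, 9.85 to 10.08 in WT zinc and 10.18 to 10.24 in WT control, so the media did not overlap. The mitochondrion-encoded probe sets were highest of their group on WT zinc replicate 2 in 16 of 19, with a median deviation of 0.20, and on RNAi control replicate 1 in 8 of 19, with 0.02. They were also highest in 14 of 19 on WT control replicate 3 (0.15), where the median plastid deviation was -0.03. On WT control replicate 1 they were highest in 3 of 19 (-0.05), where the median plastid deviation was 0.06. The 9 nuclear photosynthesis probe sets did not follow: their linear sum was 278 on WT zinc replicate 2 and 270 on RNAi control replicate 1, against 343 on WT control replicate 2, their highest. The 25S ribosomal RNA probe set was highest of its group on both arrays, at 12.73 on RNAi control replicate 1 and 12.76 on WT zinc replicate 2. The signal of the actin probe set at the 3′ end minus that at the 5′ end, a sign of RNA integrity, was 2.198 on WT zinc replicate 2, the highest of the 12 arrays. On RNAi control replicate 1 it lay inside its group's range of 1.936 to 2.155. On WT control replicate 1 the 25S signal (12.73) lay inside its group's range of 12.16 to 13.04. The actin difference on that array (2.175) was the highest of its group. The same difference for ubiquitin was highest of its group on WT zinc replicate 2 (0.57) and lowest of all 12 arrays on RNAi control replicate 1 (0.43), and for GAPDH neither array was the highest or lowest of its group. Of these measures only the spike-in mean was fitted as a covariate (below), and it cannot be told apart from the medium. The part of the other measures in the plastid values was not tested.

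The RNAi line was compared with WT first in control medium. No plastid gene passed an adjusted p of 0.05 (limma, Benjamini-Hochberg over 22746 probe sets, lowest adjusted p = 0.312), where 0.022% of all probe sets did. At an unadjusted p under 0.05, 8 of 69 (11.6%) were lower in RNAi and 0 higher, where 4.79% of all probe sets were lower. The median log2 fold change of the 69 was -0.15, against 0.00 for all probe sets, with 52 of 69 below 0. Leaving out single arrays gave medians of -0.21 (without RNAi control replicate 1) to -0.10 (without RNAi control replicate 2).

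The 15 ribosomal genes had a median of -0.10, nearer 0 than that of all 69, with 3 above 0 and overlapping groups in all 15. A pair of them gave some of the lowest values. Rpl16, a large-subunit ribosomal protein, read 8.69, 7.86 and 7.47 in RNAi control against 8.88, 8.73 and 8.44 in WT control, a log2 fold change of -0.68 (SE 0.27, adjusted p = 0.488). Its neighbour rpl14 read 9.61, 8.69 and 8.60 in RNAi control against 9.80, 9.49 and 9.35 in WT control (-0.58, SE 0.25, adjusted p = 0.540). In both genes replicates 2 and 3 of the RNAi line lay below every WT array and replicate 1 did not, so the groups overlapped. The rpl16 log2 fold change was -1.02 without RNAi control replicate 1 and -0.41 without replicate 3, and that of rpl14 was -0.90 and -0.39.

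The polymerase genes showed the same direction in all 4. RpoB, the beta subunit of the bacterial-type polymerase, read 3.69, 3.45 and 3.30 in RNAi control against 4.12, 3.99 and 3.85 in WT control, a log2 fold change of -0.50 (SE 0.15, adjusted p = 0.312). RpoC1 read 3.956, 3.610 and 4.071 in RNAi control against 4.099, 4.166 and 4.220 in WT control. These 2 sets of groups did not overlap, although both genes had signals below the lower quartile. RpoA, the alpha subunit, read 7.63, 6.99 and 7.17 in RNAi control against 7.99, 7.74 and 7.53 in WT control (-0.49, SE 0.18, adjusted p = 0.454), and rpoC2 read 6.77, 5.85 and 6.17 against 6.76, 6.30 and 6.63. The median of the 4 polymerase genes was -0.39.

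Photosystem II genes were below 0 in 14 of 15, with a median of -0.19. PsbF, a subunit of the photosystem's cytochrome, read 6.22, 5.66 and 5.75 in RNAi control against 6.46, 6.46 and 6.25 in WT control (-0.52, SE 0.21, adjusted p = 0.516). PsbM, a small subunit, read 6.30, 5.93 and 6.17 against 6.97, 6.51 and 6.63. PsbN, named with this photosystem, read 4.52, 4.45 and 4.68 in RNAi control against 5.38, 4.70 and 4.95 in WT control (-0.46, SE 0.18, adjusted p = 0.485). In each of these 3 genes every RNAi array lay below every WT array. PsbA was the one photosystem II gene above 0 and the highest of the 69, at 0.22 (SE 0.12, adjusted p = 0.651), and its RNAi control values of 4.80 to 5.12 did not overlap the WT control values of 4.67 to 4.79.

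The other class medians were -0.28 for the single genes, -0.13 each for cytochrome b6f and NDH, and -0.06 each for the ATP synthase and photosystem I. PetG was at -0.58, with 5.31, 3.66 and 3.55 in RNAi control against 5.13, 4.28 and 4.85 in WT control. Its replicate 1 in RNAi control was the highest of these 6 values. The log2 fold change was -1.15 without that array and -0.27 without RNAi control replicate 3. AtpB (0.16) and rps3 (0.15) followed psbA at the upper end. Over all 69 genes, 12 had RNAi control values all below WT control (17.4%, where 7.09% of all probe sets did) and 3 all above (4.35%, where 6.82% did). Of the 12, 9 were among the 35 genes below the median signal (25.7%) and 3 among the 34 above it (8.82%). For all probe sets this share was not split by signal. Plastid genes below the median signal also had a smaller median within-group SD (0.15, against 0.30 above it). These counts therefore do not show whether dim genes differed more between the lines than bright genes.

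**Figure D3:**
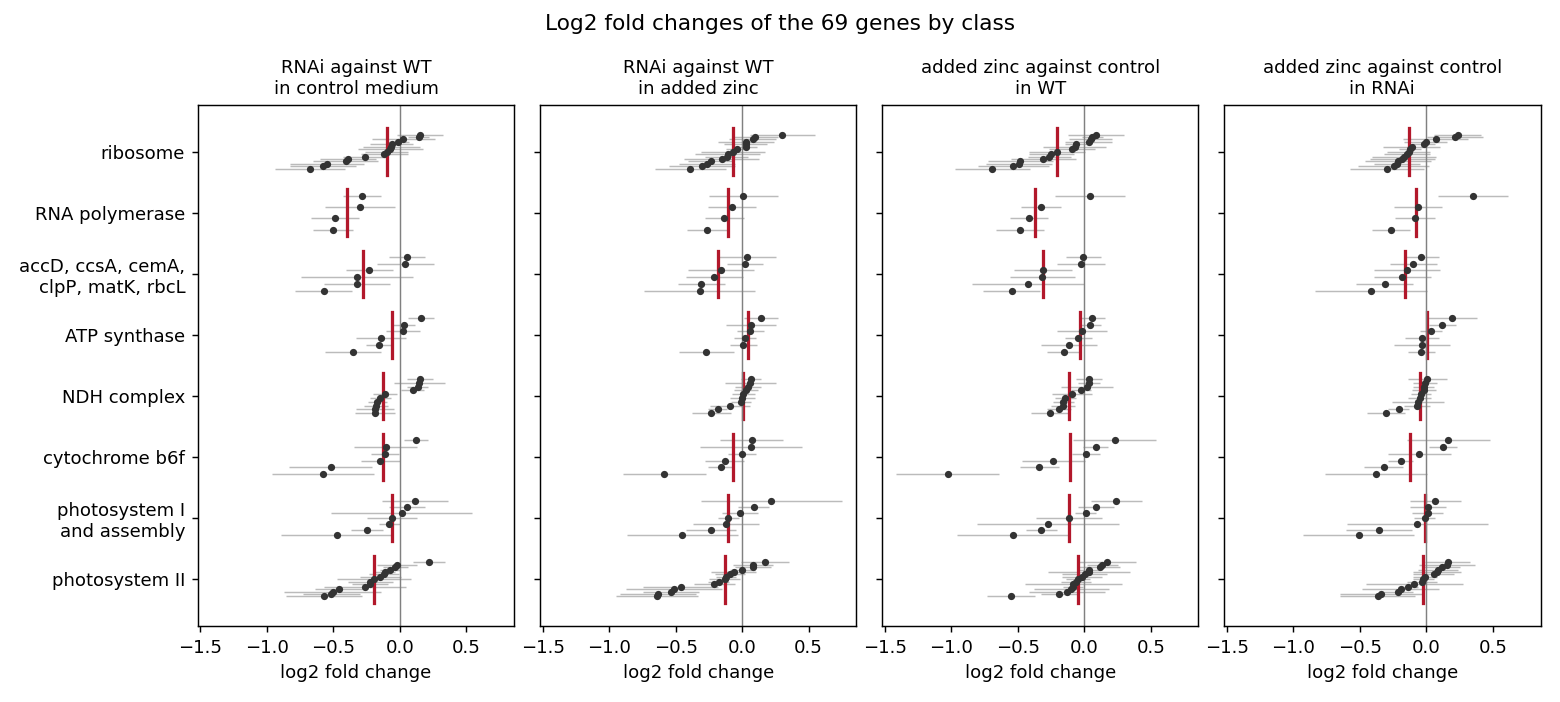
Log2 fold change ± SE of each of the 69 plastid genes by complex, in 4 panels (RNAi against WT in control medium and in zinc, zinc against control in WT and in RNAi), with a red bar at each class median. Below 0 lie 52, 41, 47 and 50 of the 69 points, and none passed the adjusted threshold.

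In added zinc 46 of the 69 plastid genes had a log2 fold change closer to 0 than in control medium. This count sets aside the sign and was not tested, and the share over all probe sets was not counted. The interaction, below, tests the signed difference of each gene. No gene passed (limma, lowest adjusted p = 0.570), where 0.0528% of all probe sets did, and 4 of 69 (5.80%) were lower at an unadjusted p under 0.05, where 3.98% of all were. The median log2 fold change was -0.07, with 41 of 69 below 0. Leaving out single arrays gave -0.14 (without WT zinc replicate 3) to 0.02 (without WT zinc replicate 2). RNAi zinc lay wholly below WT zinc in 3 genes (4.35%, where 6.82% of all probe sets did): psbD (a reaction centre core protein), psbT and ndhA.

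The lowest values in added zinc were psbI at -0.64, psbM at -0.63 and petB at -0.58. PsbI, a small photosystem II subunit, averaged 4.13 ± 0.25 in RNAi zinc against 4.77 ± 0.76 in WT zinc (SD, n = 3), with WT zinc replicate 2 at 5.63. PsbM read 5.80, 6.23 and 5.79 in RNAi zinc against 6.22, 7.42 and 6.08 in WT zinc (SE 0.29, adjusted p = 0.634). PetB, cytochrome b6, read 6.13, 6.05 and 5.44 in RNAi zinc against 6.12, 7.06 and 6.19 in WT zinc. The high WT zinc value in all 3 was replicate 2: without it psbI was at -0.21, psbM at -0.21 and petB at -0.28. Leaving out WT zinc replicate 3 gave psbI -0.93 and psbM -0.88, and leaving out WT zinc replicate 1 gave petB -0.75. At the upper end rpl32, a ribosomal protein, read 9.02, 9.45 and 9.79 in RNAi zinc against 8.97, 9.46 and 8.92 in WT zinc (0.30). It was at 0.12 without RNAi zinc replicate 3 and 0.50 without RNAi zinc replicate 1. PsaI was at 0.22, with -0.29 without WT zinc replicate 3 and 0.95 without WT zinc replicate 2. PsbN was at 0.17, with 0.007 without RNAi zinc replicate 1 and 0.28 without RNAi zinc replicate 3. Each of these 3 values depended on single arrays.

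Averaged over both media, the line comparison has the smaller SE (median 0.12 for the plastid genes, against 0.17 within a medium). No plastid gene passed (limma, lowest adjusted p = 0.122), where 1.05% of all probe sets did. At an unadjusted p under 0.05, 11 of 69 (15.9%) were lower and 0 higher, where 7.05% of all probe sets were lower. The 11 were psbM, petB, rpl16, psbF, rpl14, ccsA, rpoB, rpl36, rpoA, ndhA and psbT, and 8 of them were above the median signal. The median was -0.09, and 52 of 69 were below 0. The highest values were small: rps3 at 0.12, psaI at 0.12 and rpl32 at 0.11. Leaving out single arrays gave rps3 0.06 (without WT zinc replicate 1) to 0.21 (without WT control replicate 1), psaI -0.14 to 0.48 (without WT zinc replicates 3 and 2 in turn) and rpl32 0.02 (without RNAi zinc replicate 3) to 0.25 (without WT control replicate 1).

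RpoB had the lowest adjusted p of the 69 over both media. It read 3.39, 3.41 and 3.41 in RNAi zinc and 3.69, 3.45 and 3.30 in RNAi control, against 3.29, 3.90 and 3.80 in WT zinc and 4.12, 3.99 and 3.85 in WT control. The log2 fold change was -0.38 (SE 0.11, adjusted p = 0.122). A single low WT array, WT zinc replicate 1, overlapped the RNAi values: without it the log2 fold change was -0.48 and rpoB passed (adjusted p = 0.0431, where the settings run for it gave 0.0431 to 0.249), the only plastid call under any setting run. PsbF followed at -0.52 (SE 0.15, adjusted p = 0.139), then ndhA, an NDH membrane subunit, at -0.18 (SE 0.05, adjusted p = 0.155), psbM at -0.60 (SE 0.20, adjusted p = 0.207). Rpl16 (-0.53), psbT (-0.14), ccsA (-0.39) and petB (-0.55) came next, with adjusted p of 0.232, 0.269, 0.290 and 0.297 (limma). Leaving out WT zinc replicate 2 took psbM to -0.39. PetB in control medium read 6.42, 5.25 and 5.44 in RNAi control against 6.32, 6.11 and 6.25 in WT control, with RNAi control replicate 1 above every WT array.

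The RNAi values lay wholly below the WT values over all 12 arrays in 2 genes, psbT and ndhA (2.90%, where 1% of all probe sets did). NdhA read 3.13, 3.12 and 3.01 in RNAi zinc and 3.08, 3.15 and 3.15 in RNAi control, against 3.32, 3.18 and 3.31 in WT zinc and 3.26, 3.24 and 3.38 in WT control. PsbT read 2.83, 2.89 and 2.92 in RNAi zinc and 2.87, 2.91 and 2.93 in RNAi control, against 3.18, 3.01 and 2.98 in WT zinc and 2.97, 2.97 and 3.11 in WT control. Both are among the dim members, and their differences were of 0.18 and 0.14 log2 units.

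**Figure D4:**
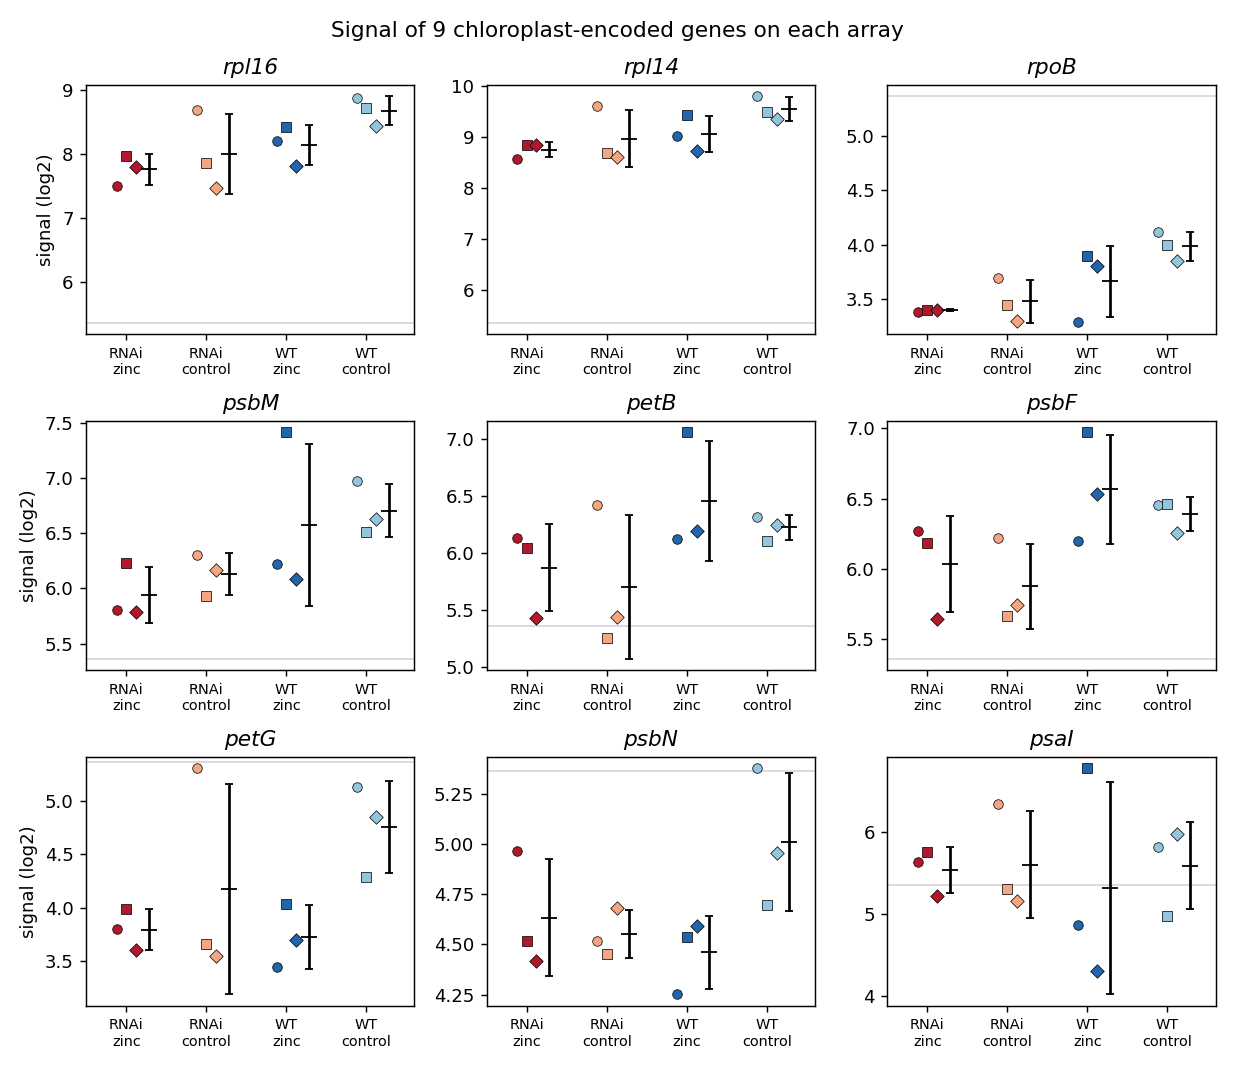
Signal (log2, vertical axis) of 9 plastid genes on each array, with circle, square and diamond for replicates 1, 2 and 3 and black bars for the mean ± SD of 3 arrays. The grey line is the median of all probe sets (5.36). In rpl16, rpl14 and rpoB most RNAi points, and also most WT zinc points, lie under the WT control points.

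Added zinc was compared with control medium within each line. In WT no probe set of the table passed an adjusted p of 0.05 (0%), plastid or other. In the plastid genes, 8 of 69 (11.6%) were lower at an unadjusted p under 0.05 and 0 higher, where 2.37% of all probe sets were lower. The median log2 fold change was -0.09, with 47 of 69 below 0. Leaving out single arrays gave -0.20 (without WT zinc replicate 2) to -0.04 (without WT zinc replicate 3, and likewise without WT control replicate 1), and the spike-in mean as a covariate gave 0.19.

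In WT the lowest was petG at -1.03 (SE 0.38, adjusted p = 0.972, as for the other 7 of the 8), with 3.44, 4.04 and 3.70 in WT zinc against 5.13, 4.28 and 4.85 in WT control. Rps4, a small-subunit ribosomal protein, read 5.07, 5.23 and 4.82 in WT zinc against 5.94, 5.78 and 5.48 in WT control (-0.69, SE 0.28). PsbN read 4.25, 4.54 and 4.59 in WT zinc against 5.38, 4.70 and 4.95 in WT control (-0.55, SE 0.18). In these 3 genes the groups did not overlap. CcsA (-0.55), rpoA (-0.48), rpoC1 (-0.42), petL (-0.34) and ycf4, a photosystem I assembly factor (-0.32), completed the 8. All 6 single genes were below 0, with a median of -0.31, and the polymerase genes had a median of -0.37. The highest were psaJ, a small photosystem I subunit (0.24), petB (0.23) and psbF (0.17). PsaJ read 7.45, 7.89 and 7.14 in WT zinc against 7.30, 7.38 and 7.08 in WT control, and psbF read 6.20, 6.97 and 6.53 in WT zinc against 6.46, 6.46 and 6.25 in WT control. Their groups overlapped, and without WT zinc replicate 2 psaJ was at 0.04, petB at -0.07 and psbF at -0.03.

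WT zinc lay wholly below WT control in 14 of 69 genes (20.3%, where 5.13% of all probe sets did) and wholly above it in 0. Most of these were dim: 12 were among the 35 genes below the median signal (34.3%). The other 2 were among the 34 above it (5.88%). The share of all probe sets was not split by signal. The 14 included 5 NDH genes (ndhD, ndhE, ndhF, ndhI and ndhK) beside petG, petL, rps2, rps4, rpl16, rpoC1, ccsA, psbN and ycf4. This comparison and that of the lines in control medium use the same 3 WT control arrays. Side by side, rpl16 was at -0.68 for RNAi in control medium and -0.53 for zinc in WT, rpoA at -0.49 and -0.48, and ccsA at -0.57 and -0.55.

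In the RNAi line 41 of the 69 plastid genes had a log2 fold change between media closer to 0 than in WT, a count not taken over all probe sets. No probe set of the table passed (0%), and 2 of 69 plastid genes (2.90%) were lower at an unadjusted p under 0.05, where 2.58% of all probe sets were. These were ndhK, which read 4.196, 4.012 and 3.982 in RNAi zinc against 4.293, 4.212 and 4.307 in RNAi control (-0.21, SE 0.08), and petL, which read 2.91, 3.13 and 3.14 in RNAi zinc against 3.79, 3.19 and 3.15 in RNAi control (-0.32, SE 0.15). Their adjusted p was 0.9996 (limma). The median of the 69 was -0.05. Leaving out single arrays gave -0.09 (without RNAi zinc replicate 2) to 0.01 (without RNAi control replicate 1), and the spike-in covariate gave 0.39. RNAi zinc lay wholly below RNAi control in 6 genes (8.70%, where 5.41% of all probe sets did), namely psbA, psbD, petL, petN, ndhI and ndhK.

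The largest differences in the RNAi line rested on RNAi control replicate 1. Ycf3 read 6.67, 6.69 and 6.16 in RNAi zinc against 7.83, 6.62 and 6.59 in RNAi control (-0.51), and was at -0.10 without that array. AccD was at -0.42, with its RNAi control replicate 1 at 6.42 and the other 2 at 5.23 to 5.24, and was at -0.02 without it. PetG read 3.80, 3.99 and 3.61 in RNAi zinc against 5.31, 3.66 and 3.55 in RNAi control (-0.38), and without RNAi control replicate 1 it was at 0.19. Without RNAi control replicate 3 the 3 genes were at -0.72, -0.61 and -0.69. At the upper end rpoC2 read 6.87, 6.79 and 6.20 in RNAi zinc against 6.77, 5.85 and 6.17 in RNAi control (0.35). Rps15 read 6.15, 5.68 and 5.41 in RNAi zinc against 5.82, 5.38 and 5.33 in RNAi control (0.24), and rpl36 read 6.43, 6.43 and 6.14 against 6.61, 5.66 and 6.08 (0.22). All 3 overlapped. Leaving out RNAi control replicate 2 took rpoC2 to 0.15 and rpl36 to -0.01, and leaving out RNAi zinc replicate 1 took rps15 to 0.03.

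Averaged over both lines, no probe set passed for zinc (0%, lowest adjusted p of a plastid gene 0.508 in limma). Of the 69 plastid genes 7 (10.1%) were lower at an unadjusted p under 0.05 and 0 higher, where 3.96% of all probe sets were lower. These were petG (-0.70), rps4 (-0.49), ccsA (-0.36), rpoC1 (-0.34), petL (-0.33), ndhI (-0.28) and ndhK (-0.17), and 6 of the 7 were below the median signal. Ycf3, at -0.52, was the second lowest but did not pass this level. Its WT zinc values of 6.46, 8.07 and 6.34 spread around the WT control values of 7.52, 7.44 and 7.51. The highest were rpoC2 (0.20), petB (0.20) and psbF (0.17), which were 0.08, 0.05 and 0.06 without WT zinc replicate 2. The median of the 69 was -0.09, with 51 below 0, and leaving out single arrays gave -0.15 (without WT zinc replicate 2) to -0.04 (without WT zinc replicate 3). Spike-in signals were lower in zinc arrays, as given above, and with their mean as a covariate the median of the plastid genes was 0.29. The spike-in level and the medium cannot be told apart here.

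The test of whether zinc acted unequally in the RNAi line and in WT called no probe set (0%). PsbN was the 1 plastid gene past an unadjusted p of 0.05 (1.45% of 69, where 1.02% of all probe sets were higher), at 0.63 (SE 0.25, adjusted p = 0.9999). Its zinc values were 4.96, 4.52 and 4.42 in RNAi zinc against 4.52, 4.45 and 4.68 in RNAi control, and those in WT were given above. The median of the 69 was 0.03, and leaving out single arrays gave -0.03 (without WT zinc replicate 3) to 0.18 (without WT zinc replicate 2). PetG had the highest value (0.65), psbN came next and rpoA had 0.42. RpoA read 6.99, 7.35 and 7.25 in RNAi zinc and 7.24, 7.53 and 7.04 in WT zinc. PsbI had the lowest (-0.38), which was 0.05 without WT zinc replicate 2, followed by psbA (-0.35) and petN (-0.28), a small cytochrome b6f subunit. PetN read 5.94, 5.98 and 5.99 in RNAi zinc against 6.08, 6.27 and 6.14 in RNAi control, and 6.21, 6.21 and 5.97 in WT zinc against 6.08, 5.90 and 6.15 in WT control.

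Values within a cluster were close in some clusters and spread in others. In the large ribosomal cluster, transcribed in the order rps19, rpl22, rps3, rpl16, rpl14, rpl36 and rpoA among the genes measured here, the log2 fold changes of RNAi against WT in control medium were -0.06, -0.10, 0.15, -0.68, -0.58, -0.39 and -0.49. The first 3 genes lay near 0 and the last 4 at -0.39 or lower. In added zinc the same genes gave 0.03, 0.03, 0.10, -0.39, -0.30, -0.26 and -0.07. For zinc against control in WT, rpl16 (-0.53), rpl14 (-0.49) and rpoA (-0.48) were again low, and rpl36 was at 0.09. The difference between positions of the cluster was not tested, and probe sets of unequal signal may answer to the same RNA unequally.

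**Figure D5:**
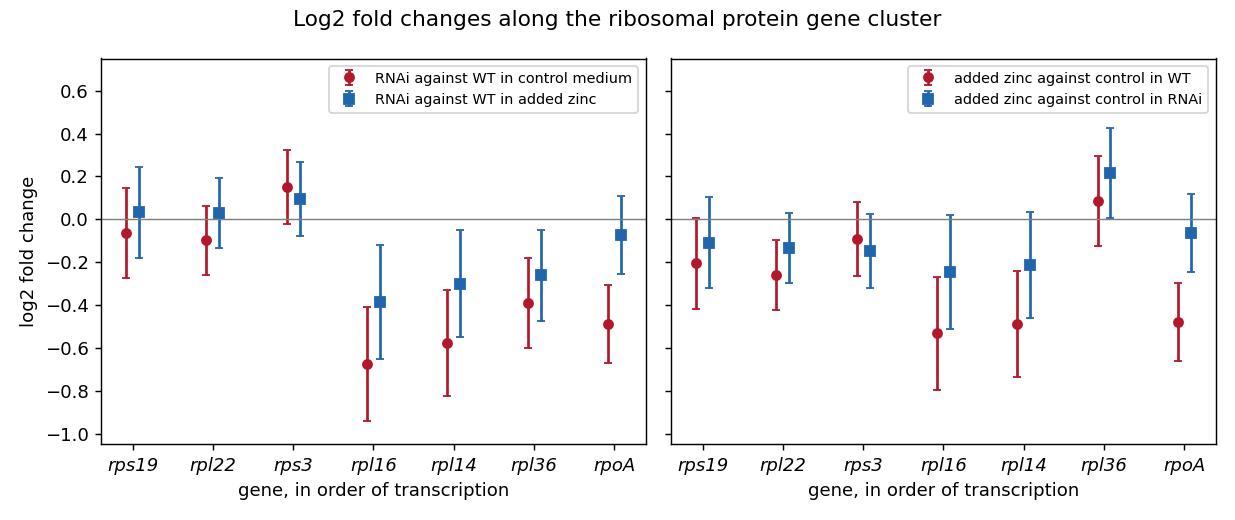
Log2 fold change ± SE of the 7 measured genes of the large ribosomal cluster in order of transcription, for RNAi against WT (left panel, in control medium and in zinc) and for zinc against control (right panel, in WT and in RNAi). Rpl16 and rpl14 lie below rps19, rpl22 and rps3 in each comparison shown. These comparisons share groups, and for zinc in RNAi the values of these genes lie close, from -0.25 (rpl16) to -0.11 (rps19).

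Between the lines, the 3 genes of the ndhC cluster lay close together despite signals of 9.57, 4.12 and 3.57. NdhC, ndhK and ndhJ gave 0.15, 0.13 and 0.15 in control medium (SE 0.19, 0.08 and 0.10) and 0.06, 0.07 and 0.04 in added zinc. For zinc against control ndhK was the lowest of them. The 3 genes gave 0.02, -0.14 and 0.04 in WT and -0.06, -0.21 and -0.07 in RNAi. In the psaA cluster, psaA, psaB and rps14 gave 0.06, 0.12 and -0.01 in control medium, and in the psbD cluster, psbD, psbC and psbZ gave -0.07, -0.12 and -0.22. In the rpoB, rpoC1 and rpoC2 cluster, RNAi against WT in control medium gave -0.50, -0.28 and -0.30. In the photosystem II cluster of psbE, psbF, psbL and psbJ, psbF (-0.52) and psbJ (-0.50) were low and psbE (-0.22) and psbL (-0.15) less so, and in added zinc the 4 gave -0.06, -0.53, -0.21 and -0.51. Of psbB, psbT, psbH, petB and petD, petB alone was low in control medium, at -0.52, against -0.02, -0.11, -0.03 and -0.11 for the others. The bright pair atpB and atpE gave 0.16 and 0.02. In the cluster of rps2, atpI, atpH, atpF and atpA the values were -0.41, 0.03, -0.14, -0.15 and -0.35, and in that of psaI, ycf4, cemA and petA they were 0.01, -0.25, 0.04 and -0.11. None of these differences within a cluster was tested.

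For comparison, the 19 mitochondrion-encoded probe sets (12 genes) had a median log2 fold change of 0.11 for RNAi against WT in control medium, with 14 of 19 above 0, against -0.15 for the plastid genes. In added zinc the medians were 0.06 for the mitochondrial and -0.07 for the plastid probe sets, and over both media 0.12 and -0.09. For zinc they were 0.01 and -0.09 in WT, -0.03 and -0.05 in RNAi, and -0.01 and -0.09 over both lines. The medians thus had opposite signs between the lines and for zinc in WT, and the same sign for zinc in RNAi and over both lines. In the interaction they were -0.05 and 0.03. None of the 19 was called in any of the 7 comparisons, and the difference between the 2 sets was not tested. Nuclear genes that serve the plastid were sparsely named: 9 of 59 for photosynthesis, 2 of 7 for NDH (NdhN at 3.91 and NdhL at 3.81), 1 of 21 for plastid transcription (RPOTmp, a phage-type polymerase, at 5.03) and 0 of 5 for plastid RNA processing, and none of those named passed in any comparison.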

How the data were processed

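The deposited values were log2 expression summaries of 22810 probe sets on 12 biotin-labelled single-colour arrays. RMA and the affy package were used, per the submitters' processing notes; their versions and the probe definition were not stated there. The 64 control probe sets were left out and no filter or scaling was applied. GEO's platform annotation gave 1 gene to 13513 probe sets, several to 503 and none to 8730.

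A group-means model over all 12 arrays was fitted with limma 3.58.1 in R 4.3.3 and tested two-sided, with Benjamini-Hochberg adjustment over 22746 probe sets in each of 7 comparisons. Replicates are pooled samples, and p-values measure the spread between them. The number of arrays limits the precision. In simulated data 200 changed probe sets were drawn from all tested ones, with noise independent between probe sets. For RNAi against WT in control medium, 42% with a log2 change of 0.5 and 97.5% with 1 were recovered. The plastid genes had a larger median SE in that comparison (0.17, against 0.11 for all probe sets) and moved together on single arrays. The rates therefore do not apply to them. Members and gene lists were chosen with earlier results of these data known. Named were the 3 highest and 3 lowest members of each comparison, the 5 brightest and 3 dimmest, and rbcL, psbA, accD, clpP and the rpo genes. Others are named where an unadjusted p or non-overlap puts them in a count, and were chosen after their values were seen. Same-numbered arrays deviated together (correlation over 0.1 in all 3 pairs, 0.16 to 0.48) for the line comparison in control medium, in 1 of 3 pairs in zinc, and between media in 0 of 3 in WT and 2 of 3 in RNAi. Alternatives changed the scaling, the filter on dim probe sets, the prior variance, array weights, a spike-in covariate, a replicate block, the arrays in the fit and single arrays.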

Additional observations from a re-analysis of the deposited data

How the results depend on the processing

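The number of plastid genes past the threshold was 0 in every comparison and setting, except for RNAi against WT over both media, where leaving out single arrays gave 0 to 1 (rpoB, without WT zinc replicate 1). The replicate block gave 0 in all 7 comparisons and changed no call. Leaving out single arrays turned the sign of 7 named values: psaI in zinc (-0.29 to 0.95) and over both media (-0.14 to 0.48) for the line, petB (-0.071 to 0.40) and psbF (-0.028 to 0.36) for zinc in WT, rpl36 (-0.013 to 0.46) and petG (-0.69 to 0.19) for zinc in RNAi, and psbI in the interaction (-0.66 to 0.052). The spike-in covariate turned 12: petL (0.13), rpoA (0.015) and petG (0.25) for zinc in WT, petL (0.32), petG (1.36), accD (1.26) and ycf3 (1.31) for zinc in RNAi, and ndhI (0.010), petL (0.22), rps4 (0.30), ycf3 (1.05) and petG (0.81) over both lines. That level parts the media, so this fit cannot separate it from zinc. Of 71 named values, 53 changed sign in no setting. The fit on the brighter probe sets held 34 of the 69 genes.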
